A study of Rattus norvegicus with 15 samples.

Results

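Selenbp1, Maf, Retsat, Arrdc2, Gpcpd1 and Car3 are 6 genes of rat gastrocnemius muscle whose mean signal, by at least 1 probe set of each, was lower after a low-protein diet and again after rebound feeding. They were chosen for that pattern on the same arrays, and single rats bear it out unevenly. After rebound feeding, Selenbp1 was lower in every restricted rat than in every control, by 1.18 on the log2 scale, and so was Maf by its brightest probe set, by 0.26. In the early arrays, 1 probe set of Car3 and 1 of Maf were called lower whichever array was left out, and their other probe sets were not. Retsat was high in the same number of restricted rats and controls at both times, and Arrdc2 differed more between replicate numbers than between diets. All probe sets that carry only 1 of these symbols were taken, which gave 10 of the 31042 probe sets tested and 6 of the 14226 genes with a probe set of their own. Selenbp1, Retsat and Arrdc2 have 1 probe set each, Gpcpd1 and Car3 have 2 each, and Maf has 3.

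Total RNA came from the gastrocnemius, a calf muscle, of male Wistar rats bought at 3.5 weeks of age and fasted for 16 h before sampling, with 1 GeneChip Rat Genome 230 2.0 array for each of 15 rats. CN rats (4 arrays) ate 15% casein for 4 weeks, and LP rats (4 arrays) ate 8% casein over the same period. CN-R rats (3 arrays) and LP-R rats (4 arrays) had the same respective diets and then, according to the methods of the study, 15% casein for 8 further weeks, whereas the sample labels keep LP-R on its first diet until day 84. The diets of the methods are used here. Replicate 3 of CN-R was not analysed here, and CN-R replicate 4 is a control by its title but a restricted rat by its treatment field, so values that depend on it are given below. Rats were picked for a body weight near the mean of their group. All the rats were outbred males without a transgene, and no array came from pooled animals.

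The signals are log2 values that the authors made with FARMS, a factor analysis that draws a probe set toward a constant where its probes do not vary together. A probe set was taken to vary where its SD over a set of arrays was over 0.01, which held for 3974 probe sets in CN and LP and for 3100 in CN-R and LP-R. All 10 probe sets of the 6 genes varied in the first set of arrays and 9 in the second. Early and late arrays did not share 1 summarization, so LP was set against CN and LP-R against CN-R, and no level was compared between the sets. Changes are the mean log2 signal of restricted rats minus that of controls, with a standard error (SE). As the tissue is a mixture, fewer cells of a type and less RNA per cell cannot be told apart. The mean log2 signal of 11 skeletal muscle markers lay between 13.50 and 13.58 in the 15 arrays, and that of 4 hepatocyte markers was nearly constant, at 6.06 in the early and 6.10 in the late arrays.

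These genes do unlike work. Maf encodes a basic leucine zipper transcription factor that binds DNA as a dimer. In skeletal muscle the large Maf factors are known for their part in the myosin program of fast fibers. Selenbp1 encodes a selenium-binding protein that oxidizes methanethiol, with hydrogen sulfide among its products. Retsat saturates a double bond of retinol, and its messenger is abundant in liver and fat as well as in muscle. Car3 encodes a cytosolic carbonic anhydrase of low activity that is abundant in slow muscle fibers and in adipocytes. Gpcpd1 splits glycerophosphocholine into choline and glycerol 3-phosphate. Arrdc2 is an alpha-arrestin, a family of adaptors that link membrane proteins to ubiquitin ligases of the NEDD4 family and that includes sensors of nutrient supply such as Txnip.

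Promoter sequence was at hand in the RefSeq table (build GRCr8) for 4 of the 6 genes, Maf, Retsat, Arrdc2 and Gpcpd1. The deposited values name no genome build, so these coordinates are those of RefSeq. The 250 bases before the annotated start are shown for 3 genes, to let a reader see the windows in which motifs were searched and how they differ in base composition. Capitals mark matches to the motifs named below.

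Retsat promoter, chr4:106211209-106211458, strand +: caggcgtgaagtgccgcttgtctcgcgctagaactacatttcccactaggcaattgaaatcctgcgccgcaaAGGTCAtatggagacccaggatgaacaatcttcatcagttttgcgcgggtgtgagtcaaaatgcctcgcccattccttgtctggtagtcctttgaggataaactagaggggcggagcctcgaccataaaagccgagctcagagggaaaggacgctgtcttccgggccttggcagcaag

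Gpcpd1 promoter, chr3:140285346-140285595, strand -: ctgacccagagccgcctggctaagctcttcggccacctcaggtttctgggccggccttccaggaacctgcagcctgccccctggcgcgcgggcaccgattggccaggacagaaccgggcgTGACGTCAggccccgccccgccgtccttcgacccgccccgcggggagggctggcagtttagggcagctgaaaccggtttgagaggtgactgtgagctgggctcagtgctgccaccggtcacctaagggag

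Arrdc2 promoter, chr16:18635633-18635882, strand +: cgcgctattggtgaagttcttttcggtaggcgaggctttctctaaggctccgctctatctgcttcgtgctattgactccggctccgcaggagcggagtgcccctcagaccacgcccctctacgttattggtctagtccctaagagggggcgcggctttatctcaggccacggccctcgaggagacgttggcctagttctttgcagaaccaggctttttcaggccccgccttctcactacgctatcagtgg

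The Retsat window holds AGGTCA, the half-site of many nuclear receptors, at 178 to 173 bases before the start. This motif, on either strand, is in 14.1% of the 33469 promoter windows of the same length. The Gpcpd1 window holds a palindrome made of TGACGT and its overlapping reverse complement, at 130 to 123 bases before the start, and TGACGT, the core of the cAMP response element, is in 6.95% of the windows. The windows of Maf and Arrdc2 hold none of the 6 motifs searched. The others were TGCTGA, a half-site of Maf factors (15.1% of windows), the E-box CACGTG (5.59%), the FOXO site TGTTTAC (3.21%) and the palindromic glucocorticoid receptor site (0.0418%). A match is a run of letters and not a measured site, and no match says only that these letters are not in this window. G and C made up 53.6% of the Retsat window, 58% of that of Arrdc2, 68.8% of that of Gpcpd1 and 73.2% of that of Maf, against a median of 51.2% over all windows.

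Differences were ranked by rank products, which the study also used and which takes all pairs of arrays. The threshold for a call was a pfp, the proportion of false positives that permutations estimate, of at most 0.05. In LP, 8 of the 10 probe sets were called lower, against 1.67% of all probe sets and 13.1% of the varying ones, and in LP-R 6 of 10 were, against 0.496% and 4.97%. Since the genes were picked for being lower in these comparisons, nothing is read from these counts. Among the members, Arrdc2 in LP (pfp 0.0382) and Gpcpd1 probe set 1393606_at in LP-R (pfp 0.0368) were just inside the threshold, and Maf probe set 1387165_at in LP-R (pfp 0.0632) was just outside it. Rank products takes all probe sets to vary alike, so a probe set that differs widely between rats is called more readily. When the fit was restricted to probe sets that vary, 0 of the 10 members were called in LP and 1 of 9, Selenbp1, in LP-R. That fit called few probe sets lower at all, 23 of 3974 in LP and 2 of 3100 in LP-R. By limma, 0 of the 31042 probe sets were called in either comparison at an adjusted p up to 0.05, with 2342 (7.54%) and 1566 (5.04%) at an unadjusted p under 0.05. The values of single arrays are therefore given in full.

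**Figure D1:**
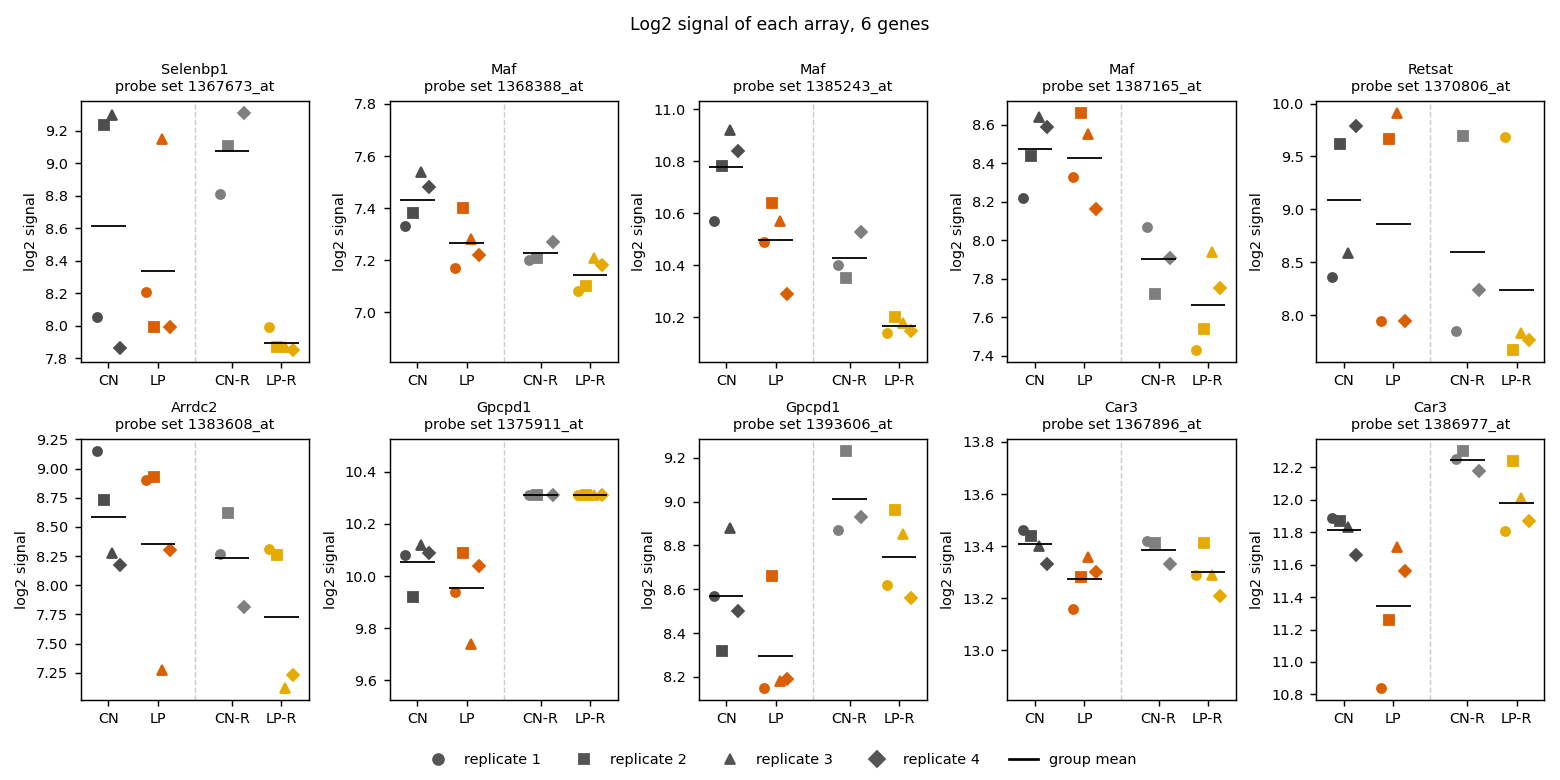
Log2 signal (vertical axis) of every array for the 10 probe sets of the 6 genes, in the groups CN, LP, CN-R and LP-R, with the marker shape giving the replicate number and a line for the group mean. Selenbp1 and Maf probe set 1385243_at have every LP-R array below every CN-R array, whereas Retsat has high and low arrays in each group.

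Maf was measured by 3 probe sets. For probe set 1385243_at, which has the highest mean signal of them, CN replicates 1 to 4 had log2 signals of 10.57, 10.78, 10.92 and 10.84, and LP replicates 1 to 4 had 10.49, 10.64, 10.57 and 10.29. The LP values lay lower on the whole, but LP replicate 2 was above CN replicate 1, so the groups overlapped. The change was −0.28 (SE 0.11), and it stayed between −0.35 and −0.21 without any 1 array. In the late set, CN-R replicates 1, 2 and 4 had 10.40, 10.35 and 10.53, and LP-R replicates 1 to 4 had 10.14, 10.20, 10.18 and 10.15. Every LP-R array was below every CN-R array, a pattern found in 3.32% of the varying probe sets. The late change was −0.26 (SE 0.06), and the LP-R arrays were within 0.06 of each other. With CN-R replicate 4 placed in LP-R the change was −0.13.

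The other probe sets of Maf moved less or less evenly. For 1368388_at, which has the lowest mean signal of the 3, the change was −0.16 (SE 0.07) in LP and −0.08 (SE 0.04) in LP-R. For 1387165_at, CN replicates 1 to 4 had log2 signals of 8.22, 8.44, 8.64 and 8.59 and LP replicates 8.33, 8.66, 8.55 and 8.16, which overlapped almost wholly. Its late values were 8.07, 7.72 and 7.91 in CN-R replicates 1, 2 and 4, and 7.43, 7.54, 7.94 and 7.75 in LP-R replicates 1 to 4. The changes were −0.05 (SE 0.15) and −0.24 (SE 0.15), and the early one was 0.04 without LP replicate 4. Thus 3 probe sets with the same symbol gave early changes from −0.28 to −0.05 on the log2 scale.

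Selenbp1, read by probe set 1367673_at, fell into a high and a low level within the early arrays. CN replicates 1 to 4 had log2 signals of 8.05, 9.24, 9.30 and 7.86, and LP replicates 1 to 4 had 8.21, 7.99, 9.15 and 7.99. No array lay between 8.21 and 9.15, with 2 CN arrays and 1 LP array above that gap. The early change of −0.28 (SE 0.47) thus came from 1 more high array in CN than in LP, and it was −0.07 without CN replicate 2, −0.05 without CN replicate 3 and −0.55 without LP replicate 3. A gap as wide was found in 24 of the 3974 varying probe sets.

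In the late arrays the levels of Selenbp1 split along the diets. The log2 signals were 8.81, 9.11 and 9.31 in CN-R replicates 1, 2 and 4 and 7.99, 7.87, 7.87 and 7.85 in LP-R replicates 1 to 4. No value lay between 7.99 and 8.81, and all 3 CN-R arrays were above that gap. LP-R was 2.27-fold lower (change −1.18, SE 0.15), and the change lay between −1.31 and −1.06 without any 1 array. It was −0.78 with CN-R replicate 4 counted as LP-R. The array annotation gives Selenbp1 an older gene ID, and RefSeq now lists Selenbp2 as a synonym of Selenbp1, so transcripts of near-identical copies may share this probe set.

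Retsat, read by probe set 1370806_at, was also high or low in single rats, in every group. Its log2 signals in CN replicates 1 to 4 were 8.36, 9.62, 8.59 and 9.79, and in LP replicates 1 to 4 they were 7.94, 9.67, 9.91 and 7.94. A gap of 1.03 separated 2 high arrays of CN and 2 of LP from the rest. In CN-R replicates 1, 2 and 4 the values were 7.85, 9.69 and 8.24, and in LP-R replicates 1 to 4 they were 9.68, 7.67, 7.83 and 7.76. The gap was 1.44 here, with 1 high array in CN-R and 1 in LP-R, and 7 of the 3100 varying probe sets had a gap as wide. The number of high arrays was thus the same in control and restricted rats at both times, with 3 CN-R and 4 LP-R arrays in the late set. The changes were −0.23 (SE 0.65) and −0.36 (SE 0.74), both smaller than their SE. Without 1 array they ran from −0.58 to 0.08 in LP and from −0.84 to 0.19 in LP-R, where leaving out CN-R replicate 2 gave the positive value.

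Arrdc2, read by probe set 1383608_at, differed between replicate numbers at least as much as between diets. The log2 signals were 9.15, 8.73, 8.28 and 8.17 in CN replicates 1 to 4 and 8.90, 8.93, 7.27 and 8.30 in LP replicates 1 to 4. The late values were 8.27, 8.62 and 7.81 in CN-R replicates 1, 2 and 4, and 8.31, 8.26, 7.12 and 7.23 in LP-R replicates 1 to 4. In each of the 4 groups, replicates 1 and 2 were above the replicates numbered 3 and 4. That difference was −0.92 on the log2 scale in both sets of arrays (numbers 3 and 4 minus 1 and 2, with the diet in the fit), against diet changes of −0.23 (SE 0.45) and −0.50 (SE 0.40). Within numbers 1 and 2 the diet change was −0.03 in LP and −0.16 in LP-R, and within numbers 3 and 4 it was −0.44 and −0.64. The value of −0.64 has CN-R replicate 4, the array whose labels conflict, as its only control. With a term for the numbers, the late change was −0.35. The labels do not say what the numbers stand for, and their part in the result was not tested. Without LP replicate 3 the early change was 0.12.

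Of the other members, only Retsat in the late arrays differed widely between the numbers, by −0.74 (3 and 4 minus 1 and 2). This was more than by diet, and its diet change was −0.24 with a term for them. For the remaining probe sets, and for Retsat in the early arrays, that difference lay between −0.10 (Gpcpd1 probe set 1393606_at, late) and 0.23 (Car3 probe set 1386977_at, early). The early changes of several members came mostly from 1 side of the split. Within numbers 1 and 2 the early change was −0.83 for Car3 probe set 1386977_at and −0.54 for Selenbp1, and within 3 and 4 it was −0.11 and −0.01. The reverse was seen for Gpcpd1 probe set 1393606_at, at −0.04 and −0.50, and for Maf probe set 1385243_at, at −0.11 and −0.45. Maf probe set 1387165_at had 0.16 within numbers 1 and 2 and −0.26 within 3 and 4. In the late arrays, the change of Selenbp1 was −1.03 and −1.45 and that of Car3 probe set 1386977_at −0.25 and −0.24. The late values within numbers 3 and 4 have CN-R replicate 4, the array whose labels conflict, as their only control.

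Gpcpd1 gave unlike readings from its 2 probe sets. For 1393606_at the log2 signals were 8.57, 8.32, 8.88 and 8.50 in CN replicates 1 to 4 and 8.15, 8.66, 8.18 and 8.19 in LP replicates 1 to 4. LP replicate 2 stood above the other LP arrays and above 3 of the 4 CN arrays. The late values were 8.87, 9.23 and 8.93 in CN-R replicates 1, 2 and 4, and 8.62, 8.96, 8.85 and 8.56 in LP-R replicates 1 to 4, where again 1 LP-R array was within the range of CN-R. The changes were −0.27 (SE 0.17) and −0.26 (SE 0.14). Probe set 1375911_at, the brighter of the pair, had a change of −0.10 (SE 0.09) in LP and was constant at 10.31 in all 7 late arrays.

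Car3 had the highest log2 signals among the 6 genes. For probe set 1386977_at they were 11.89, 11.87, 11.83 and 11.66 in CN replicates 1 to 4 and 10.84, 11.26, 11.71 and 11.56 in LP replicates 1 to 4. Only LP replicate 3 reached the range of CN, whose lowest array was replicate 4. The change was −0.47 (SE 0.20), and it was −0.30 without LP replicate 1, the lowest array. After rebound feeding the values were 12.25, 12.30 and 12.18 in CN-R replicates 1, 2 and 4 and 11.81, 12.24, 12.01 and 11.87 in LP-R replicates 1 to 4, with a change of −0.26 (SE 0.10). All LP-R arrays but replicate 2 were below CN-R.

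The brighter Car3 probe set, 1367896_at, had smaller changes of the same sign. Its log2 signals were 13.46, 13.44, 13.40 and 13.33 in CN replicates 1 to 4 and 13.16, 13.28, 13.36 and 13.30 in LP replicates 1 to 4. The changes were −0.14 (SE 0.05) in LP and −0.08 (SE 0.05) in LP-R. At this level it stood near the top of the range of the arrays, whose highest log2 signals were 14.07 in the early and 14.16 in the late set.

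**Figure D2:**
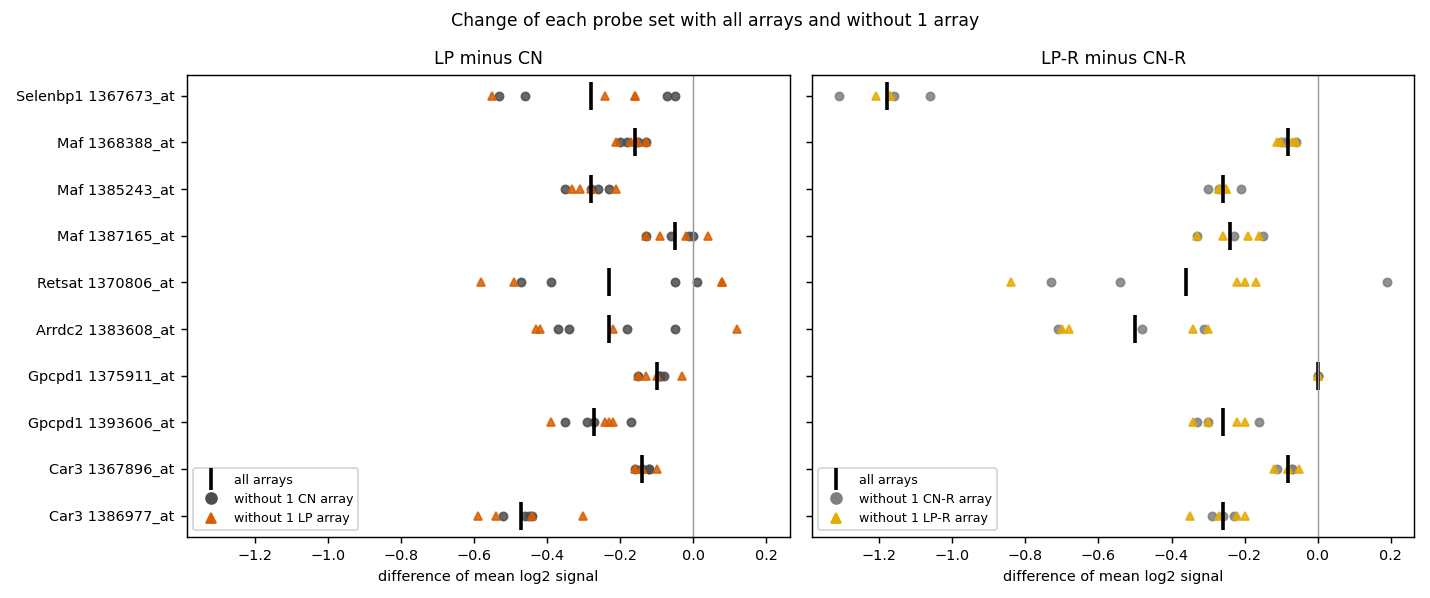
Change in mean log2 signal (horizontal axis) of each of the 10 probe sets, LP minus CN on the left and LP-R minus CN-R on the right, with all arrays (bar) and without each array in turn (points). Retsat and Arrdc2 cross 0 in LP, Maf 1387165_at does so too, Retsat alone does in LP-R, and Selenbp1 in LP-R stays between −1.31 and −1.06.

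The calls depended on single arrays to unlike degrees. In LP, the calls of Maf probe set 1385243_at and of Car3 probe set 1386977_at held without each of the 8 arrays in turn, and that of Retsat held in 5 of 8, whereas those of Selenbp1, Arrdc2 and Gpcpd1 probe set 1393606_at held in 4 of 8, that of Maf probe set 1368388_at in 3 and that of Car3 probe set 1367896_at in 2. In LP-R, the call of Selenbp1 held without each of the 7 arrays, that of Retsat in 5, that of Maf probe set 1385243_at in 4, those of Arrdc2 and Car3 probe set 1386977_at in 2 and that of Gpcpd1 probe set 1393606_at in 1. For all genes too, fewer probe sets were called with 1 array less. With CN-R replicate 4 counted as LP-R, Selenbp1 was the only member called in the late arrays. In 0 of 10 early and in 2 of 9 late varying probe sets of these genes did the groups not overlap, against 2.49% and 3.32% of all varying probe sets.

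The 6 genes did not vary as a block from rat to rat. Each gene was taken by the probe set with the largest sum of its SDs in both sets of arrays, which for Maf is 1387165_at. Pearson's r between Selenbp1 and Arrdc2 was −0.42 across the 8 early and 0.45 across the 7 late arrays. Between Selenbp1 and Retsat it was 0.27 and 0.30, and between Maf and Retsat 0.73 and −0.48. Maf probe set 1385243_at, which varied slightly more in the early arrays, had an r of 0.53 with Retsat there and of −0.00 in the late arrays. Its r with Selenbp1 was 0.45 and 0.94. Gpcpd1 and Car3 had 0.36 and 0.89. These r are descriptions over the same arrays and include the shift between diets. With the diet means taken off, the r of Selenbp1 with Maf probe set 1385243_at was 0.42 and 0.48. Probe sets of 1 gene mostly went together more closely, with 0.96 and 0.88 for the pair of Car3 and 0.59 to 0.90 among those of Maf.

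Genes with the most similar pattern were sought among all varying probe sets with 1 symbol, by the lower of the r over the 8 early and over the 7 late arrays. Car3 was closest to Ampd3, an AMP deaminase (0.90 and 0.87), Tpm3, a tropomyosin of slow fibers (0.83 and 0.92), and Tnni1, the troponin I of slow fibers (0.81 and 0.96). Within groups, with the diet means taken off, the r of Car3 with Tnni1 was 0.87 and 0.93, that with Tpm3 0.84 and 0.83, and that with Ampd3 0.80 and 0.79. Arrdc2 was closest to Flt1, a receptor for vascular endothelial growth factor (0.89 and 0.91), Cebpd, a transcription factor that responds to glucocorticoids (0.87 and 0.94), and Tob2 (0.92 and 0.87). Within groups these r lay between 0.89 and 0.95. Cebpd had log2 signals of 9.50, 8.77, 8.67 and 8.47 in CN replicates 1 to 4 and 8.88, 8.81, 7.81 and 7.97 in LP replicates 1 to 4, a change of −0.49 (SE 0.36). It had 8.36, 8.38 and 7.73 in CN-R replicates 1, 2 and 4 and 8.44, 8.20, 7.59 and 7.54 in LP-R replicates 1 to 4, a change of −0.22 (SE 0.31). As for Arrdc2, its replicates 1 and 2 were above those numbered 3 and 4 in each of the 4 groups.

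For Selenbp1 the closest pattern was that of Tmod4, a tropomodulin of skeletal muscle that caps thin filaments (0.82 and 0.98). Its late log2 signals were 12.66, 12.74 and 12.77 in CN-R and 12.59, 12.56, 12.60 and 12.55 in LP-R, a far smaller step than that of Selenbp1. In RefSeq, Tmod4 and Selenbp1 lie on the same chromosome with 7 protein-coding genes between them. Pdlim1 (0.78 and 0.75) and Crem, a factor that binds cAMP response elements (0.74 and 0.79), followed. With the diet means taken off, the r of Selenbp1 was 0.87 and 0.92 with Tmod4 and 0.73 and 0.86 with Crem, but 0.82 and 0.25 with Pdlim1, whose late r thus came mostly from the shift between diets. Maf, by probe set 1387165_at, was closest to Tmod1 (0.85 and 0.80), the muscle determination factor Myod1 (0.91 and 0.76) and another probe set of Crem (0.76 and 0.83). Retsat was closest to Nfyb (0.73 and 0.88), the mitochondrial malic enzyme Me3 (0.80 and 0.71) and glutamate dehydrogenase Glud1 (0.68 and 0.80). The changes of these 3 genes with diet ran from −0.06 to 0.18 over both comparisons. Gpcpd1, by probe set 1393606_at, was closest to the histone demethylase Kdm5a (0.76 and 0.75), Clip1 (0.73 and 0.76) and Zfyve9 (0.83 and 0.71).

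**Figure D3:**
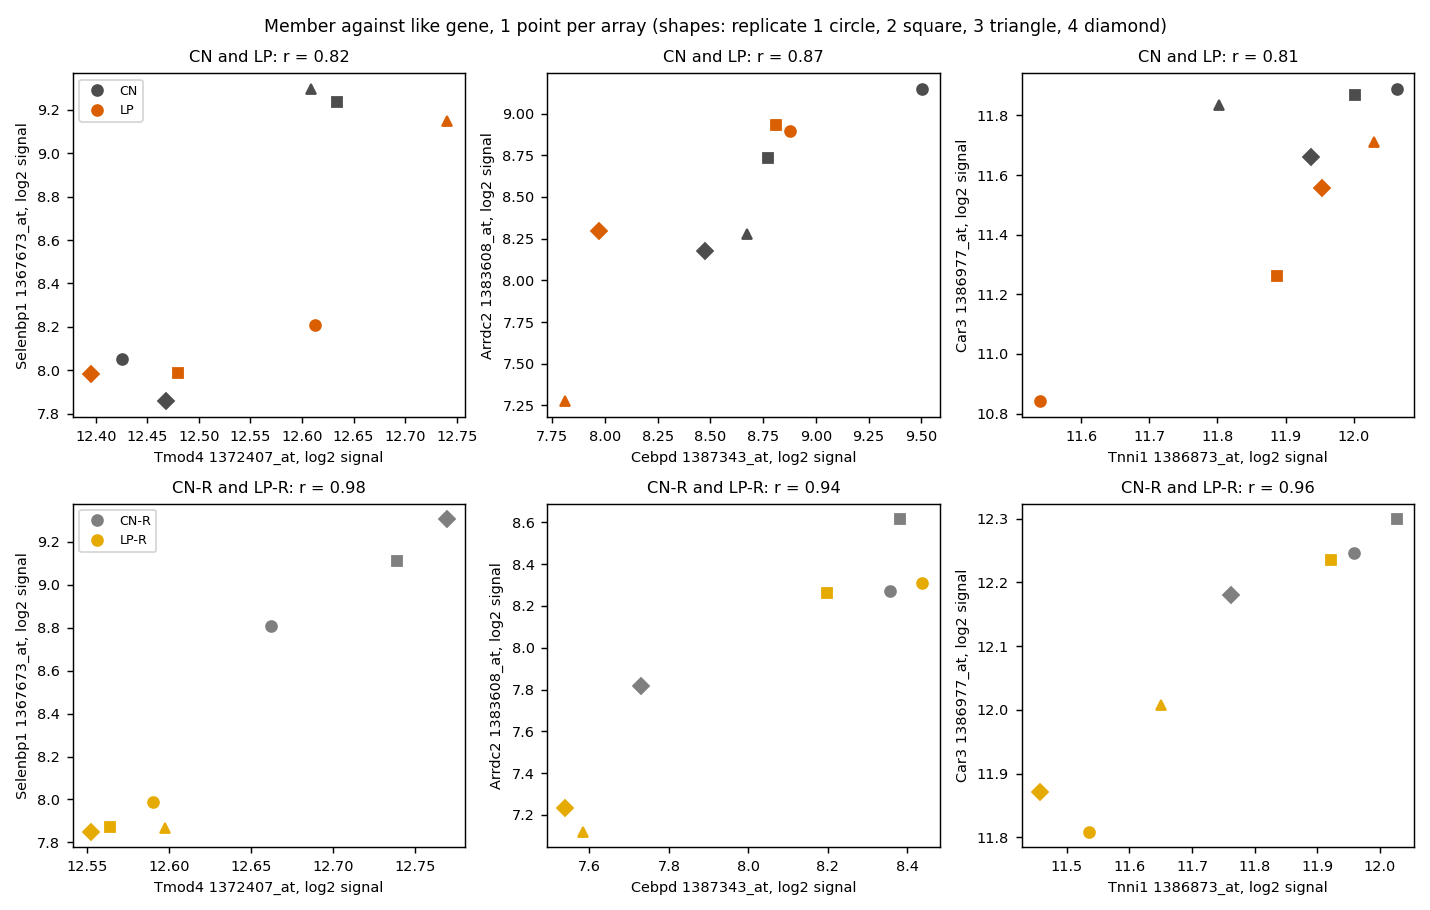
Log2 signal of Selenbp1, Arrdc2 and Car3 (vertical axes) against that of Tmod4, Cebpd and Tnni1 (horizontal axes), 1 point for each array, with early arrays above and late arrays below and the replicate number as marker shape. Control and restricted rats lie along much the same line for Arrdc2, and for Car3 in the late arrays. In the early arrays, Car3 is lower in LP than in CN at like signals of Tnni1. The late arrays of Selenbp1 form a high CN-R and a low LP-R cluster.

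Of the genes around Car3, several of slow fibers were called lower in the late arrays, as Car3 was. Of 13 measured genes of slow fibers, 0 were called in LP, and in LP-R 6 were called lower and 0 higher. Of all genes 0.752% were called lower in LP-R, and of those with a varying probe set 5.14%. The mean was lower in 11 of 12 varying genes in LP (median −0.08) and in 11 of 11 in LP-R (median −0.18), against medians of 0.03 and −0.02 over all varying genes. Ankrd2, a stretch-responsive protein of slow fibers, changed by −0.58 (SE 0.30) in LP-R, the slow myosin Myh7 by −0.39 (SE 0.22) by its dimmer probe set and by −0.14 (SE 0.17) by its brighter one, which was not called, and Tpm3 by −0.28 (SE 0.09). These calls rested on few control rats: 6 became 1 without CN-R replicate 1, 0 without CN-R replicate 2 or 4, 3 without LP-R replicate 1, 3 or 4, 9 without LP-R replicate 2, 0 with CN-R replicate 4 counted as LP-R and 2 with values as deposited permuted. Over varying probe sets alone, 0 genes of this list were called in LP-R. Tnnt1, the slow troponin T, had a change of −0.13 (SE 0.11) in LP and was not called. The r of Car3 probe set 1386977_at with the mean of this list was 0.77 over the early and 0.85 over the late arrays.

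Of 19 genes of fast fibers, 2 were called lower (10.5%) and 1 higher (5.26%) in LP, and 0 and 1 in LP-R. Of all genes 2.56% were called lower and 2.8% higher in LP, and of those with a varying probe set 13.6% and 14.9%. In LP-R, 0.225% of all genes were called higher and 1.54% of those with a varying probe set. Mybpc2, the fast myosin-binding protein C, changed by −0.29 (SE 0.08) in LP with no overlap, and Prkag3, a subunit of AMP-activated kinase, by −0.21 (SE 0.15). The value of Mybpc2 is from a dimmer probe set, and its brightest did not vary. Sypl2 was higher in LP by 0.15 (SE 0.04) by a dimmer probe set. Its brighter one changed by 0.10 (SE 0.05) and was not called. The myosin Myh1 was higher by 0.15 (SE 0.07) in LP-R, by a probe set other than its brightest, which did not vary. Among 20 carbonic anhydrases and acid-base transporters other than Car3, 5 were called higher and 0 lower in LP, against 2.8% of all genes and 14.9% of those with a varying probe set, and 0 were called in LP-R, against 0.225% of all genes higher. Car4, a membrane-bound carbonic anhydrase, was higher by 0.40 (SE 0.19), Car8 by 0.21 (SE 0.17) and Car2 by 0.19 (SE 0.12), the opposite sign to Car3.

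Genes of the fasting and glucocorticoid response, which include Cebpd and Ddit4, were called lower and not higher at both times. Of 28 measured, 13 were called lower and 0 higher in LP, against 2.56% of all genes lower and 13.6% of those with a varying probe set, and 7 and 0 in LP-R, against 0.752% and 5.14% lower. All genes leaned the same way in the late arrays, with 107 called lower and 32 higher and a lower mean in 1172 of 1745 varying genes. A varying probe set was measured for 24 of the 28 at both times. Without 1 array, 8 to 12 were called lower in LP, with 8 without LP replicate 1 or 3, and 0 to 7 in LP-R, with 0 without CN-R replicate 1 or 2, 1 without CN-R replicate 4, 3 without LP-R replicate 3 or 4 and 4 without LP-R replicate 1. With CN-R replicate 4 counted as LP-R, 1 was. With values as deposited permuted, 12 were called lower in LP and 2 in LP-R. Over varying probe sets alone, 3 and 0 were. In LP, Cdkn1a, an inhibitor of the cell cycle, had a change of −0.82 (SE 0.21) with no overlap by 1 probe set and −0.31 (SE 0.22) by its brighter one, Fbxo32, a ubiquitin ligase of muscle atrophy, −0.72 (SE 0.25) with no overlap, and Ddit4, an inhibitor of mTORC1, −0.72 (SE 0.70). In LP-R, the insulin receptor substrate Irs2 changed by −0.46 (SE 0.56), the phosphatase Dusp1 by −0.42 (SE 0.33) and the kinase Sgk1 by −0.39 (SE 0.33), changes of about the size of their SE. Without CN-R replicate 1 they were −0.13, −0.11 and −0.08, and none of the 3 was called. In LP, the change of Ddit4 ran from −1.21 to −0.38 without 1 array. Fbxo32 had a late change of −0.01. The r of Arrdc2 with the mean of this list was 0.74 and 0.93.

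Among 16 alpha-arrestins and ligases of the NEDD4 family, 3 were called lower in LP (18.8%, against 2.56% of all genes and 13.6% of those with a varying probe set), the ligases Nedd4 (−0.28, SE 0.13), Smurf2 (−0.23, SE 0.12) and Nedd4l (−0.12, SE 0.06). The brightest probe set of Nedd4 changed by −0.03 (SE 0.14) and was not called, and that of Smurf2 did not vary. In LP-R the only one called was Arrdc3, an alpha-arrestin like Arrdc2, at −0.53 (SE 0.15) with every LP-R array below every CN-R array. It was not called in LP, at −0.10 (SE 0.19). Txnip, the best known alpha-arrestin, changed by 0.02 in both comparisons.

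The lists set around Retsat, Selenbp1 and Gpcpd1 had 0 to 2 genes called in a direction. In the early arrays 6 of 29, 10 of 27 and 6 of 31 of their genes had a varying probe set. Of all genes with a varying probe set, 13.6% were called lower and 14.9% higher in LP. Of 29 genes of retinoid metabolism and receptors, the field of Retsat, 2 were called higher in LP (6.9%, against 2.8% of all genes), the retinal dehydrogenase Aldh1a1 (0.46, SE 0.34) and the reductase Dhrs4 (0.12, SE 0.04). The change of Aldh1a1 was 0.14 without LP replicate 1 and was then not called. From this list 0 were called in LP-R, where only Aldh1a1 varied (−0.52, SE 0.49). Of 27 selenoproteins and enzymes of hydrogen sulfide, set beside Selenbp1, the sulfurtransferase Tst (−0.24, SE 0.09) and the plasma glutathione peroxidase Gpx3 (−0.15, SE 0.07) were called lower in LP (7.41%, against 2.56% of all genes) and Selenom (0.11, SE 0.03) higher. In LP-R 0 were called, and the change with the largest size was that of Gpx1, at −0.18 (SE 0.08). Of 31 genes of glycerophosphodiester and choline metabolism, set beside Gpcpd1, 2 were called lower in LP (6.45%, against 2.56%) and 0 in LP-R. Those in LP were the lysophospholipase Pnpla7 (−0.31, SE 0.16) and Pnpla8 (−0.20, SE 0.09). The brightest probe set of Pnpla8 did not vary. In LP-R, Chpt1 had 0.11 (SE 0.05).

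Of 15 other Maf, CNC and AP-1 factors, the partners and relatives of Maf, Jund (0.30, SE 0.14) and Jun (0.22, SE 0.18) were called higher in LP. Fosb was called both higher and lower there, with a change of 0.17 and an SE of 0.76, and the change was negative without CN replicate 4, LP replicate 1 or LP replicate 2. In LP this made 20% of the list higher and 6.67% lower, against 2.8% and 2.56% of all genes. Of genes with a varying probe set, 14.9% were called higher and 13.6% lower. In LP-R, Fos (−1.06, SE 0.80) and Jun (−0.31, SE 0.21) were called lower and Jund (0.16, SE 0.08) higher. These are 13.3% and 6.67% of the list, against 0.752% and 0.225% of all genes and 5.14% and 1.54% of those with a varying probe set. Without CN-R replicate 1, Fos changed by −0.28 and Jun by −0.10, and neither was called. Of the named list genes called, 6 of 22 in LP kept their call without each array in turn (Tst, Mybpc2, Car4, Cdkn1a, Ddit4 and Fbxo32), and 0 of 11 did in LP-R. Of 36 probe sets of the named genes of these lists, 0 passed an exact two-sided permutation test of the late change minus the early one, with labels permuted within each set of arrays (smallest Benjamini-Hochberg adjusted p 0.269). By limma, 0 genes of any list were called in either comparison.

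**Figure D4:**
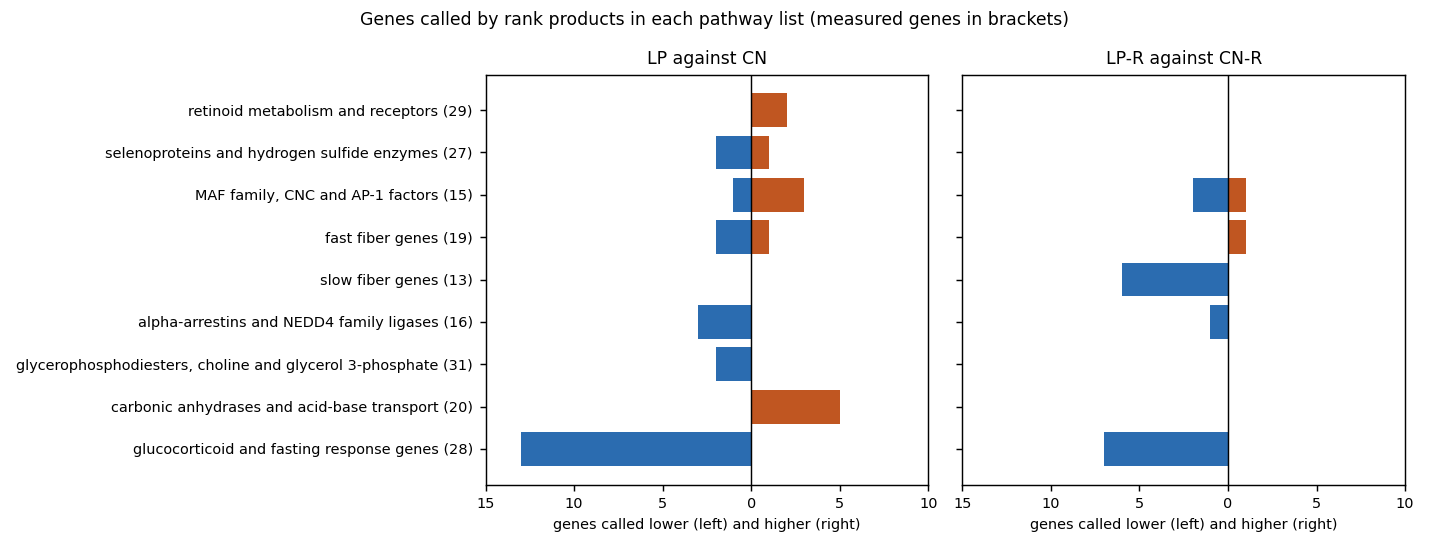
Number of genes called lower (bars to the left) and higher (bars to the right) by rank products in 9 pathway lists set around the 6 genes, LP against CN on the left and LP-R against CN-R on the right, with the number of measured genes in brackets. The slow fiber list has 0 calls in LP and 6 lower in LP-R, and the list of glucocorticoid and fasting genes has 13 and 7 lower.

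Since Car3 and Retsat are also abundant in adipocytes, markers of that cell type were set beside them. The mean log2 signal of 16 adipocyte markers ran from 7.46 to 7.69 in CN, from 7.44 to 7.97 in LP, from 7.32 to 7.41 in CN-R and from 7.29 to 7.35 in LP-R. Of these markers 5 were called higher and 0 lower in LP, against 2.8% of all genes higher and 14.9% of those with a varying probe set. They were Scd (1.10, SE 0.65), Adipoq (0.38, SE 0.38), Thrsp (0.36, SE 0.32), Fasn (0.18, SE 0.08) and Fabp4 (0.14, SE 0.13). Their sign was opposite to that of the 6 genes. Of the 11 markers that varied in the early arrays, 8 changed upward and 3 downward, Cfd and Plin4 among the latter (−0.04 each). In LP-R 1 marker, Cfd (−0.34, SE 0.09), was called lower, against 0.752% and 5.14%. All 5 markers that varied in the late arrays changed downward (median −0.12), the sign of the 6 genes there. Of all varying genes, 1172 of 1745 did so. The r of this mean over the early arrays was −0.43 with Car3 probe set 1386977_at, −0.76 with Retsat and −0.69 with Selenbp1, and over the late arrays it was 0.57, 0.40 and 0.51. Of 7 endothelial markers 4 were called higher in LP, against the same 2.8% and 14.9%, and 0 in LP-R. Of 12 macrophage markers 0 were called in LP and 1 in LP-R, Lyz2, which was higher (0.16, SE 0.05). Of all genes 0.225% were called higher in LP-R, and of those with a varying probe set 1.54%. C1qa (−0.08, SE 0.02) and C1qc (−0.15, SE 0.04) were lower there without overlap of the groups, and were not called. Of 3 blood cell markers only the globin gene Hbb varied, with a change of −0.09 (SE 0.14) in LP and of −0.36 (SE 0.27) in LP-R, where it was called lower. The part of these cell types in the changes was not tested.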

How the data were processed

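Total RNA of 15 rats, 1 GeneChip Rat Genome 230 2.0 array each, was summarized by the authors with FARMS in R, and the deposited values are log2 signals per probe set. Their scale and direction were checked on the values, and no further normalization was applied. Early and late arrays appear to come from separate FARMS runs, since 94.7% of 26041 probe sets that are nearly constant in each differ by over 0.01 between them. Control probe sets (57) were left out. Of the 31042 tested, 20837 carry 1 gene symbol of the platform annotation, 425 several and 9780 none. The methylation arrays of the study were not analysed here.

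The 6 genes and all lists were chosen with earlier results of these data known, so the values of the 6 genes are a description with no test. Rank products were written in Python 3.11.15 (numpy 2.4.6, scipy 1.17.1, pandas 2.3.3) for all array pairs, using 100 permutations within arrays (seed 1) of values from which the mean of each probe set was taken, and called at a pfp up to 0.05. The subtraction was chosen after the data were seen. limma 3.58.1 in R 4.3.3 was run beside it. Both were tested on simulated data, where rank products also called unchanged probe sets of wide spread. A gene was called when at least 1 of its probe sets was. The probe set of highest mean stands for a gene in the medians and r of lists, and the called one for a named gene. Named genes were up to 3 called from each pathway list and comparison by size of change, or where none was called the gene with the largest change, and the 3 genes most like each member. Arrdc3 in LP, Fbxo32 in LP-R, Txnip, the markers and genes called in both directions were added after their values were seen. The number of arrays limits the precision. Alternatives were quantile normalization, median centring, filters, medians, other probe sets, a replicate block, disjoint pairs, CN-R replicate 4 counted as LP-R, leaving out each array and, after the data were seen, other seeds, a term for replicate numbers and permutations of values as deposited. Promoters are from RefSeq (GRCr8).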

Additional observations from a re-analysis of the deposited data

Results flagged for a closer look

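Among the groups of 4 rats, 130 of which were examined over the probe sets named here, 7 held an array that stood far from its 3 fellows, where chance gives about 1 in 20 groups. In log2 signal, Selenbp1 had 7.99 in LP-R replicate 1 against 7.85 to 7.87 in the other LP-R arrays, a small step within a tight group. Retsat was at 9.68 in LP-R replicate 1 against 7.67 to 7.83. Gpcpd1 probe set 1393606_at was at 8.66 in LP replicate 2 against 8.15 to 8.19. Among the genes of the lists, Aldh1a1 was at 10.72 in LP replicate 1 against 9.33 to 9.49, and Fosb was at 6.39 in LP-R replicate 1 against 6.23 to 6.25. Smurf2 was at 8.37 in CN replicate 3 against 8.06 to 8.09, and Irs2 at 9.08 in CN replicate 4 against 9.79 to 9.88.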

How the results depend on the processing

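Of 180 values of the 6 genes under alternatives, 163 moved by less than the spread between replicates and kept their sign, 11 moved further and 6 changed sign. The cause was not tested. Without 1 array, the changes in LP and in LP-R ran from −0.55 to −0.05 and from −1.31 to −1.06 for Selenbp1, −0.35 to −0.21 and −0.30 to −0.21 for Maf, −0.58 to 0.08 and −0.84 to 0.19 for Retsat, −0.43 to 0.12 and −0.71 to −0.30 for Arrdc2, −0.15 to −0.03 and 0.00 for Gpcpd1, and −0.16 to −0.10 and −0.12 to −0.05 for Car3, each by its probe set with the highest mean. Retsat turned positive in LP without CN replicate 4 (0.01), LP replicate 1 or LP replicate 4 (0.08 each) and in LP-R without CN-R replicate 2 (0.19). Arrdc2 in LP turned to 0.12 without LP replicate 3 and to 0.09 with medians in place of means. With CN-R replicate 4 in LP-R, the late changes were −0.78 for Selenbp1 and −0.13 for Maf. The mean of all probe sets gave −0.19 for Maf in LP-R, −0.13 for Gpcpd1 in LP-R, and −0.30 and −0.17 for Car3. The probe set with the largest SD gave −0.27 and −0.26 for Gpcpd1 and −0.47 and −0.26 for Car3, and quantile normalization gave 0.01 for Gpcpd1 in LP-R. Fosb in LP ran from −0.19 to 0.60 without 1 array and was −0.10, −0.16 and −0.19 without CN replicate 4, LP replicate 1 and LP replicate 2.

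Rank products called 1089 probe sets in LP (34 list genes) and 218 in LP-R (18 list genes). Without 1 array it called 385 to 677 (15 to 26) and 21 to 212 (1 to 23). Restricted to probe sets that vary, it called 33 (3) and 7 (0). Over probe sets with a mean signal at or above the median, it called 345 (16) and 80 (5). limma, with or without a replicate block, called 0 (0) in both. With CN-R replicate 4 as LP-R, 37 (3) were called. When values as deposited were permuted, the late calls were 53 lower and 107 higher (10 list genes) in place of 154 and 64, and Gpcpd1 and Car3 were not among them.

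With the replicate block in a linear fit, the changes were −0.28 and −1.17 for Selenbp1, −0.28 and −0.27 for Maf, −0.23 and −0.22 for Retsat, and −0.23 and −0.30 for Arrdc2. Same-numbered arrays did not deviate together throughout (r from −0.03 to 0.55), though their r lay higher on the whole than those of arrays with unlike numbers (−0.54 to 0.33). As the labels do not say what the numbers stand for, they were not taken to pair the rats in the main comparisons. Rank products over disjoint pairs of the same number called 5 probe sets of 4 member genes lower in LP, in place of 8 of 6, without Selenbp1, Arrdc2 and Maf probe set 1368388_at. In LP-R it called 6 probe sets of 5 genes, without Arrdc2 and with Maf probe set 1387165_at.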
